A study of Mus musculus with 22 samples.

Results

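The comparison described here asks whether a steatohepatitis diet altered the difference in gene expression between the middle of the dark period and the middle of the light period in mouse liver cells. It uses 11 of the 22 libraries of the study, all those of 2 diets taken at zeitgeber time (ZT) 6 h or 18 h, where ZT0 is lights on. Control mice ate chow, and diet mice ate CDA-HFD, a high-fat feed that lacks choline and has defined amino acids, used to model steatohepatitis with fibrosis. The groups held 2 libraries at control ZT6, 3 at control ZT18, 3 at diet ZT6 and 3 at diet ZT18. Per the labels, mice were 8 weeks old when feeding started and 20 weeks old at sampling, which makes 12 weeks of diet, but another field of the labels gives 6 months for the diet group, so the length of feeding is not settled. No strain, sex, genotype or other treatment is named in the labels used here. Whether replicates are separate animals is not stated, so the p-values reflect spread among libraries that may be partly or wholly technical. For each of 22409 tested genes, the log2 difference ZT18 minus ZT6 was taken within each diet, and the control difference was subtracted from the diet difference. The result is called the interaction below. It is positive where the ZT18 minus ZT6 difference was more positive under diet.

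Liver cells keep daily time with a transcriptional loop. BMAL1 (Arntl) with CLOCK drives the Period, cryptochrome and REV-ERB (Nr1d1, Nr1d2) genes through E-box sequences, the Period and cryptochrome proteins repress BMAL1 with CLOCK, and the REV-ERB proteins repress Arntl. The liver also meets daily cycles of feeding, body temperature and hormones. Proteins bound for secretion fold in the endoplasmic reticulum (ER) with the help of chaperones such as BiP (Hspa5), whose genes are raised together by the unfolded protein response through ER stress response elements in their promoters.

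The labels call the cells HSC, commonly read as hepatic stellate cells, the retinoid-storing cells that become scar-forming myofibroblasts. Markers of stellate cells summed to 612 to 1310.2 CPM (read counts scaled to a common library size by TMM) in the 5 control libraries and to 225 to 436 CPM in the 6 diet libraries. Markers of liver endothelium summed to 45812 to 67732 CPM under control and to 2668 to 5178 CPM under diet. Lrat, the enzyme that makes retinyl esters and a defining stellate marker, had 3.07 and 3.24 CPM at control ZT6, 3.16, 1.53 and 1.74 at control ZT18, 1.46, 1.59 and 1.09 at diet ZT6 and 0.642, 1.9998 and 3.65 at diet ZT18. No marker of either list was at 0 in all 11 libraries, but the libraries hold RNA of several cell types, and fewer cells of a type and less RNA per cell cannot be told apart in any result below. The libraries held 19754805 to 34975379 counts in genes. The ribosomal RNA gene CT010467.1 took 16.7% to 21.6% of counts at ZT6 and 9.98% to 13.8% at ZT18. The first principal component, with 44.2% of the variance, parted the diets. On the second, control ZT18 replicate 1 (-105) and control ZT6 replicate 2 (95.4) stood at opposite ends.

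The interaction was called (Benjamini-Hochberg adjusted p under 0.05, edgeR's quasi-likelihood test, used for every adjusted p below) for 206 genes, 0.919% of those tested. Of these, 97 had a positive interaction (0.433%) and 109 a negative one (0.486%). The control libraries differed between ZT18 and ZT6 in 1071 genes (4.78%), 661 higher at ZT18 (2.95%) and 410 lower (1.83%). The diet libraries differed in 82 genes (0.366%), 51 higher at ZT18 (0.228%) and 31 lower (0.138%). A call in one diet and none in the other does not show a difference by itself, and the statements below rest on the interaction. Of the 206 genes, 158 were also called between the times in control and 26 under diet, 5 of them in both, and 27 were called in neither. The 2 differences had opposite signs in 174 of the 206 genes. For 87 the control difference was below 0 and the diet difference above 0, and for another 87 the reverse held. The test selects genes whose 2 differences lie far apart, which favours opposite signs, so these counts are no separate result. Over all tested genes the 2 differences were only weakly correlated (Pearson r = 0.083). The absolute difference was larger in control for 168 of the 206. Over all tested genes the median absolute difference was larger in control too (0.496 against 0.325 under diet), so this is not particular to the called genes. The median interaction over all tested genes was -0.0089.

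**Figure D1:**
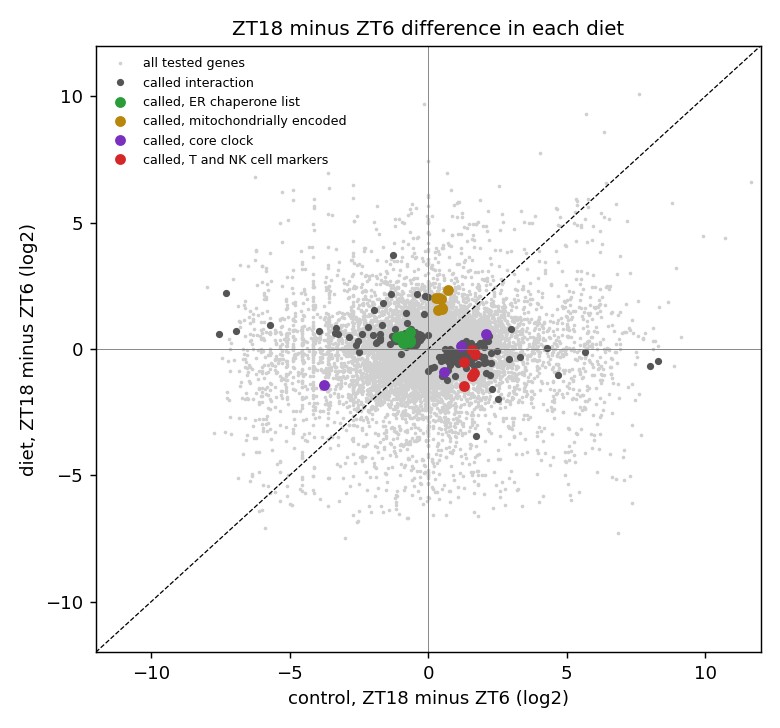
Each point is 1 of the 22409 tested genes, with its log2 difference ZT18 minus ZT6 in control on the x axis and under diet on the y axis, and the dashed line marks equal differences. The called genes were selected for unlike differences and lie mostly in the upper left and lower right quadrants (174 of 206 have opposite signs). The ER chaperone genes form a tight group left of 0, the mitochondrially encoded genes lie above 1.5 on the y axis, and Nr1d1 lies far to the left.

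The count of called genes moved with single libraries, most with control ZT6 replicate 2. Without control ZT6 replicate 2 the test called 38 genes, 30 positive and 8 negative, and 33 of them were among the 206. Without control ZT6 replicate 1 it called 211, of which 123 were among the 206, and without control ZT18 replicate 1 it called 140, with 119 shared. Counts without 1 of the other 8 libraries ran from 61 (diet ZT18 replicate 3) to 136 (diet ZT18 replicate 1), and without any of the other diet libraries the count was at most 86. In all, 24 genes (0.107%), 21 positive (0.0937%) and 3 negative (0.0134%), were called with all libraries and again with the same sign with each of the 11 left out in turn. Of these 24, the 4 not described further below, named after their values were seen, were St13, a cochaperone of HSP70 (0.98 ± 0.17), Rnd3, a small GTPase (1.11 ± 0.20), Snap23, a membrane fusion factor (1.14 ± 0.19), and the arrestin relative Arrdc3 (1.39 ± 0.23), given as log2 interactions with their SE. The split of the calls moved with the scaling. With library size alone in place of TMM, 69 calls were positive and 140 negative, and the median interaction of all genes shifted to -0.15, so directions below are relative to the bulk of genes. Under that scaling Cd207, Ahsa1, Ctss, mt-Co1 and Serpina1a were no longer called (adjusted p = 0.0526 to 0.0593). No gene named below changed sign under any alternative while called.

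A group of ER chaperone genes had called positive interactions. Of 24 tested genes of ER chaperones and the unfolded protein response, 11 had a called positive interaction and none a negative one (0.919% of all tested genes were called), and the median was 0.91. In control, 11 of the 24 fell from ZT6 to ZT18 and none rose (median -0.55), and under diet 1 rose and none fell (median 0.28). Of all tested genes 1.83% fell in control and 0.228% rose under diet. The summed level of the list was 9295 and 9765 CPM at control ZT6, 5474, 5999 and 6021 at control ZT18, 4094, 4105 and 3976 at diet ZT6 and 5144, 5179.7 and 5666 at diet ZT18. The highest sums were thus those of control ZT6 and the lowest those of diet ZT6, with the ZT18 groups of both diets between them. Endothelial marker sums were also higher at control ZT6 (67732 and 63572 CPM) than at control ZT18 (48400.2, 47681 and 45812 CPM), and their part in the result was not tested.

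Hspa5, which encodes BiP, the main HSP70 chaperone of the ER (chr2:34771970-34777547 on GRCm38), had 1905 and 1539.9 CPM at control ZT6, 1014, 1133 and 1162 at control ZT18, 809, 808 and 752 at diet ZT6 and 1193, 1223 and 1323 at diet ZT18. Both ZT6 groups lay outside the range of their ZT18 group, above it in control and below it under diet. Its interaction was 1.30 ± 0.15 on the log2 scale (SE; adjusted p = 0.000521), from a fall by 0.64 in control (adjusted p = 0.00302) and a rise of 0.66 under diet (adjusted p = 0.00242). Hspa5 was called with each of the 11 libraries left out (adjusted p at most 0.00397). Hsp90b1, the ER member of the HSP90 family known as GRP94, had 1376 and 1759 CPM at control ZT6, 698, 718 and 752 at control ZT18, 416, 399.6 and 385 at diet ZT6 and 546, 548 and 572 at diet ZT18. Its 2 control ZT6 libraries were the highest of all and the 3 diet ZT6 libraries the lowest, with no overlap between any of the 4 groups. The interaction was 1.59 ± 0.19 (adjusted p = 0.000521), with a control fall by 1.12 (adjusted p = 0.000332) and a diet difference of 0.47 that was not called (adjusted p = 0.116). Hsp90b1 was called with each of the 11 libraries left out (adjusted p at most 0.0115).

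Of the protein disulfide isomerases, which form and shuffle disulfide bonds, Pdia6, Pdia3 and Pdia4 were called. Pdia6 had 868 and 1031 CPM at control ZT6, 439, 491 and 502 at control ZT18, 275, 262 and 262 at diet ZT6 and 331, 357 and 409 at diet ZT18, and its interaction was 1.45 ± 0.21 (adjusted p = 0.00414). Pdia3, which acts on glycoproteins held by the lectin chaperones, had 1334 and 1599 CPM at control ZT6, 776, 794 and 773 at control ZT18, 461, 425 and 409 at diet ZT6 and 496, 522 and 502 at diet ZT18, and its interaction was 1.14 ± 0.17 (adjusted p = 0.00417). In both genes the control ZT6 libraries were the highest and the diet ZT6 libraries the lowest, and no group overlapped another. Pdia6 was called with each of the 11 libraries left out (adjusted p at most 0.032), as was Pdia3 (at most 0.0415). Pdia4 had an interaction of 1.29 ± 0.24 (adjusted p = 0.0152). Pdia4 lost its call without control ZT6 replicate 2 (adjusted p = 0.128) and diet ZT18 replicate 3 (adjusted p = 0.0503).

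The lectin chaperones that hold newly made glycoproteins were also called. Calr, the soluble one, had 244 and 295 CPM at control ZT6, 138, 149 and 149 at control ZT18, 105, 98.8 and 97.96 at diet ZT6 and 119, 123 and 119 at diet ZT18, with an interaction of 1.15 ± 0.18 (adjusted p = 0.00643). Its 4 groups did not overlap. Canx, its membrane-bound relative, had an interaction of 1.02 ± 0.18 (adjusted p = 0.0106). Calr lost its call without control ZT6 replicate 2 (adjusted p = 0.0606). Canx lost its call without control ZT6 replicate 2 (adjusted p = 0.102). Among cofactors, Sdf2l1, which works with BiP and its J-domain partner Dnajb11, had 71.9 and 101 CPM at control ZT6, 38.7, 50.2 and 41.999 at control ZT18, 37.96, 33.9 and 35.6 at diet ZT6 and 44.7, 58.8 and 50.9 at diet ZT18. The control ZT6 libraries were the highest, diet ZT6 the lowest, and the ZT18 groups overlapped each other. Its interaction was 1.51 ± 0.23 (adjusted p = 0.00498). Sdf2l1 was called with each of the 11 libraries left out (adjusted p at most 0.0447). Creld2 (1.15 ± 0.20, adjusted p = 0.0106) was also called with each library left out. Dnajb11 (0.92 ± 0.17, adjusted p = 0.0152) and Manf, a secreted factor of stressed ER (1.12 ± 0.21, adjusted p = 0.0173), were called with all libraries. Dnajb11 lost its call without control ZT6 replicate 2 (adjusted p = 0.128). Manf was called in 8 of the 11 fits that leave out 1 library, and its adjusted p was highest, 0.0681, without control ZT6 replicate 1. Over the 11 fits that leave out 1 library, 8 to 11 members were called. The 8 called without control ZT6 replicate 2 were 7 of these 11 and the J-domain protein gene Dnajb9 (adjusted p = 0.0478), which was not called with all libraries. Counts of other lists with 1 library left out likewise include such members.

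The other 13 tested members were not called. Among them were the transcription factors of the response. Xbp1 had an interaction of 0.74 ± 0.20 (adjusted p = 0.0811), Atf6 one of 0.21 ± 0.24 (adjusted p = 0.773), Atf4 one of -0.0077 ± 0.14 and Ddit3, which encodes CHOP, one of 0.014 ± 0.31. Atf4 and Ddit3 target genes that mark the integrated stress response had wide errors, as in Trib3 (1.83 ± 0.61, adjusted p = 0.158), Asns (0.74 ± 0.55) and Chac1 (-0.18 ± 1.06). Herpud1, a membrane protein of ER-associated degradation, had 357 and 331 CPM at control ZT6, 319.5, 377 and 343 at control ZT18, 305, 325 and 333 at diet ZT6 and 361, 352 and 433 at diet ZT18. The control groups overlapped, the diet ZT18 libraries were all above the diet ZT6 ones, and the interaction was 0.24 ± 0.18 (adjusted p = 0.605).

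**Figure D2:**
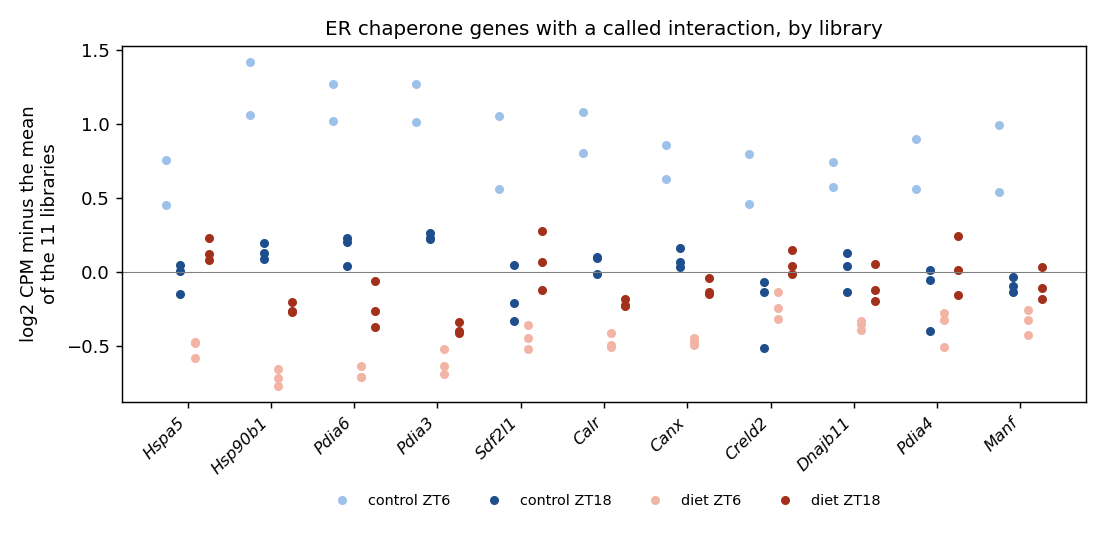
Each point is 1 library, drawn as its log2 CPM minus the mean of the 11 libraries, for the 11 ER chaperone genes with a called interaction, and colours mark the 4 groups. For every gene both control ZT6 libraries are the highest, the diet ZT6 libraries are mostly the lowest, and the ZT18 libraries of both diets lie between.

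Promoter sequences are shown for 4 of the called genes whose windows hold the same motif. The ER stress response element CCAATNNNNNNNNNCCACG was searched on both strands in the 32851 RefSeq promoter windows of GRCm38.p6, each with 250 bases before and 50 after a start site, and 39 windows (0.119%) held it. Of the 24 tested list members 21 had a window, and 7 of these held a match, 6 of the 10 called ones (Calr, Canx, Creld2, Hsp90b1, Hspa5 and Pdia6) and 1 of the 11 that were not called (Dnajc3). The called Pdia3, Pdia4, Sdf2l1 and Dnajb11 held none. The list was made up of genes of the unfolded protein response, which acts through this element. Its share of matches and their split by call are therefore no test of the motif. A match is a description of the letters, not of binding. The 250 bases before the start follow, 5′ to 3′ along the gene, with matches in capitals, for Hspa5 (chr2:34771840-34772089, plus strand), Hsp90b1 (chr10:86705445-86705694, minus strand, 2 matches), Pdia6 (chr12:17266339-17266588, plus strand) and Calr (chr8:84846932-84847181, minus strand).
Hspa5: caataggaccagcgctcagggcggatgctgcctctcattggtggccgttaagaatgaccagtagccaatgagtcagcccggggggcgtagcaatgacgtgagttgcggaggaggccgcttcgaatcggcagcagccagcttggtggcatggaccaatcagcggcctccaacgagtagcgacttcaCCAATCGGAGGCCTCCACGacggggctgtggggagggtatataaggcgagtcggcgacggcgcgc
Hsp90b1: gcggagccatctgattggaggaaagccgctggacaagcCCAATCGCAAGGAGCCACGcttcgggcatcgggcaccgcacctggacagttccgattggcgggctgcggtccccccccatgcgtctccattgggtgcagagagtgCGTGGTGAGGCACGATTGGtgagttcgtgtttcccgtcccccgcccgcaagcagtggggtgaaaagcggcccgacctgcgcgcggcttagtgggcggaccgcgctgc
Pdia6: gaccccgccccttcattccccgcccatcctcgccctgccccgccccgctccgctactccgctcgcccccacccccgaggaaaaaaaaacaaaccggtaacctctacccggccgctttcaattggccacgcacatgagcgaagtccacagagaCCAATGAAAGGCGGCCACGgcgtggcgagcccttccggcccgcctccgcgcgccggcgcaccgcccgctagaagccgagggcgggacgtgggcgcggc
Calr: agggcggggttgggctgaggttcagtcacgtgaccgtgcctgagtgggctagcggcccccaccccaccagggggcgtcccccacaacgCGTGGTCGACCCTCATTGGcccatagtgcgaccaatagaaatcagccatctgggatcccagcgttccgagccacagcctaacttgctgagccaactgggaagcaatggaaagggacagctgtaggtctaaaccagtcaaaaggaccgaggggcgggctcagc

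Of the 19 clock genes, all tested, 4 had a called interaction, 1 positive and 3 negative, with a median of -0.30 (0.919% of all tested genes were called). In control, 2 rose (Cry1 and Per1) and 3 fell (Nr1d1, Nr1d2 and Dbp) from ZT6 to ZT18. Under diet, Nr1d1 and Dbp fell and none rose. Of all tested genes 2.95% rose and 1.83% fell in control, and 0.138% fell under diet. Nr1d1, the REV-ERB alpha repressor (chr11:98767932-98775333), had 413 and 393 CPM at control ZT6, 25.8, 33.5 and 29.7 at control ZT18, 48.4, 55.1 and 37.7 at diet ZT6 and 18.5, 16.7 and 17.9 at diet ZT18. The 2 control ZT6 libraries stood far above the other 9, and in each diet ZT6 and ZT18 did not overlap. The gene fell by 3.76 in control (adjusted p = 5.69e-08) and by 1.41 under diet (adjusted p = 0.00327), and the interaction was 2.35 ± 0.32 (adjusted p = 0.00281). Nr1d1 was called with each of the 11 libraries left out (adjusted p at most 0.0177). It was the only clock gene of which this held. The related Nr1d2 fell by 1.01 in control (adjusted p = 0.00321), and its diet difference of -0.52 was not called, but the interaction of 0.48 ± 0.24 was not called either (adjusted p = 0.38).

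The 3 clock genes with a called negative interaction were Cry1, Per1 and Per3, all of the period and cryptochrome families. Cry1, a cryptochrome, had 15.1 and 20.9 CPM at control ZT6, 96.5, 66.5 and 68.7 at control ZT18, 31.9, 27.1 and 30.8 at diet ZT6 and 46.7, 33.9 and 54.2 at diet ZT18. In control the ZT18 libraries were all above the ZT6 ones, and under diet they were above too, but by less. It rose by 2.10 in control (adjusted p = 0.000332), the diet difference of 0.58 was not called, and the interaction was -1.52 ± 0.33 (adjusted p = 0.0307). Per1, which also responds to glucocorticoids, had 38.4 and 25.1 CPM at control ZT6, 72.5, 81.2 and 63.5 at control ZT18, 111, 100.1 and 94.8 at diet ZT6 and 129, 101 and 100.4 at diet ZT18. Control ZT18 lay above control ZT6, while the diet groups overlapped. The interaction was -1.08 ± 0.24 (adjusted p = 0.0313), with a control rise of 1.19. Per3 had 25.2 and 19.1 CPM at control ZT6, 30.4, 36.2 and 32.4 at control ZT18, 13.2, 10.6 and 13.5 at diet ZT6 and 6.21, 6.79 and 6.71 at diet ZT18, lower at ZT18 in every diet library and higher at ZT18 in every control library. Neither difference was called (0.57 in control, -0.92 under diet), but the interaction was (-1.49 ± 0.33, adjusted p = 0.0311). Cry1 was called in 3 of the 11 fits that leave out 1 library, and its adjusted p was highest, 0.123, without control ZT6 replicate 1. For Per1 the number was 3 of 11 (highest 0.221, without control ZT6 replicate 2) and for Per3 3 of 11 (highest 0.207, without control ZT6 replicate 2). Per2 (-1.02 ± 0.65, adjusted p = 0.525) and Cry2 (-1.29 ± 0.36, adjusted p = 0.0902) were not called. The count for the whole list was 1 to 3 with 1 library left out.

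Dbp, a PAR bZIP output factor driven by BMAL1 with CLOCK, had 47.4 and 59.9 CPM at control ZT6, 12.8, 14.1 and 10.4 at control ZT18, 10.4, 13.1 and 11.1 at diet ZT6 and 5.54, 4.37 and 4.79 at diet ZT18. It was lower at ZT18 in all libraries of both diets and fell in each (-2.11 in control, adjusted p = 0.000273, and -1.24 under diet, adjusted p = 0.0118). Its interaction of 0.87 ± 0.32 was not called (adjusted p = 0.212). At each time the diets did not overlap, a difference in level that the interaction does not test. Arntl, which encodes BMAL1, had 26.9 and 19.8 CPM at control ZT6, 15.7, 25.6 and 20.8 at control ZT18, 22.8, 13.998 and 24.1 at diet ZT6 and 31.7, 28.1 and 28.2 at diet ZT18. The control groups overlapped, all diet ZT18 libraries were above the diet ZT6 ones, and the interaction of 0.71 ± 0.39 was not called (adjusted p = 0.447). Clock (0.0055 ± 0.29), Npas2 (-2.50 ± 1.22), Rora (-0.38 ± 0.40), Tef (-0.61 ± 0.41), Hlf (-0.24 ± 0.98), Nfil3 (-0.30 ± 0.44), Bhlhe40 (-0.076 ± 0.31), Bhlhe41 (1.65 ± 0.83) and Ciart (-0.75 ± 0.51) were not called either. Their adjusted p ran from 0.379 up. For such genes 2 and 3 libraries a group leave wide errors, and a missed call does not show that the diets acted alike.

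**Figure D3:**
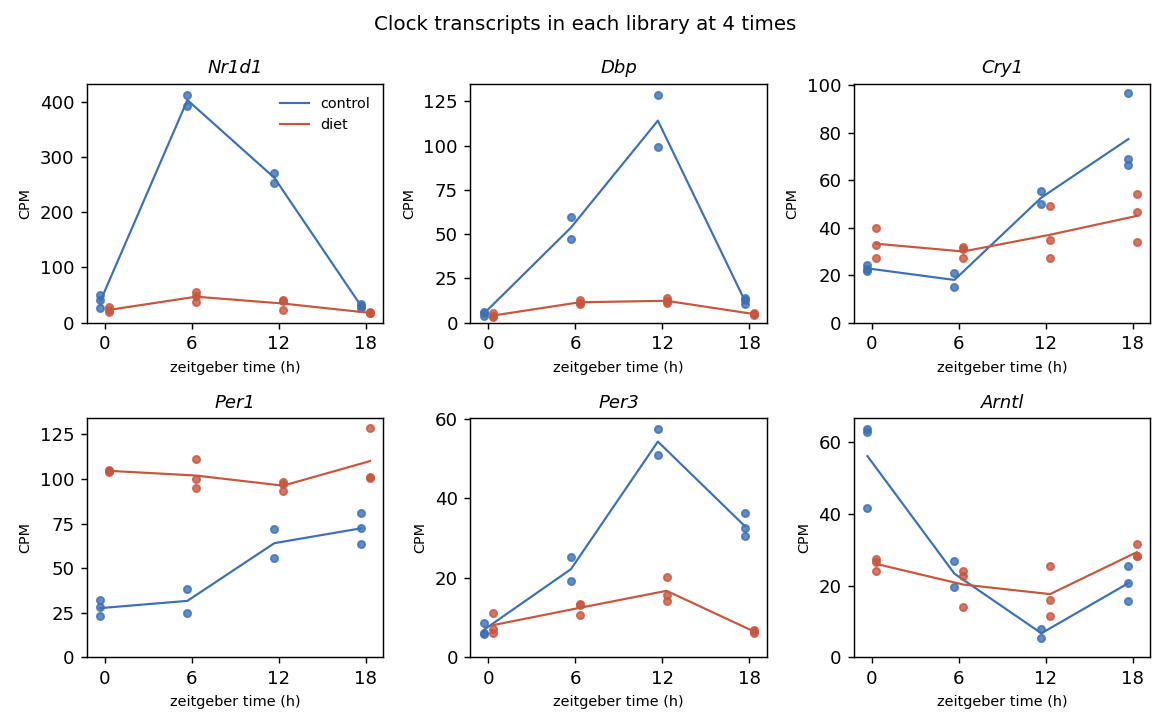
CPM of 6 clock genes (y axis, linear from 0) in every library at the 4 zeitgeber times (x axis, hours), with lines through the group means of control (blue) and diet (red). Nr1d1 reached 403 ± 14.05 CPM (SD, n = 2) at control ZT6 against 47.1 ± 8.75 CPM (SD, n = 3) at diet ZT6, and Dbp reached its highest group mean, 114 ± 20.7 CPM (SD, n = 2), at control ZT12, a time that the ZT6 to ZT18 comparison does not use.

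Promoters of Per1 and Cry1 are given as the called clock genes whose window holds the E-box CACGTG. Among the 19 genes 16 had a window, and 5 of these held an E-box (Bhlhe41, Ciart, Cry1, Per1 and Tef), 2 of the 4 called and 3 of the 12 not called, against 7.15% of all windows. The palindrome reads the same on both strands. The D-box TTATGTAA was in the window of 1 of the 16, Per3, and in 0.938% of all windows. The list was made up of clock genes, several of which BMAL1 with CLOCK drives through E-boxes. Its shares of matches and their split by call are therefore no test of either motif. The list was also counted by gene, some with more than 1 window, and the background by window. The bases before the start are from chr11:69098699-69098948, plus strand (1 of 2 windows of the gene), and chr10:85185055-85185304, minus strand, with the E-box in capitals.
Per1: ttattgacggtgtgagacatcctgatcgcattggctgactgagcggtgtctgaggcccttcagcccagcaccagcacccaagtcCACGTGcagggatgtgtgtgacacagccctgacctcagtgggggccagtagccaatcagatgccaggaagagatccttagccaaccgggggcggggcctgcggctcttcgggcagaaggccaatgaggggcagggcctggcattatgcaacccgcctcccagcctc
Cry1: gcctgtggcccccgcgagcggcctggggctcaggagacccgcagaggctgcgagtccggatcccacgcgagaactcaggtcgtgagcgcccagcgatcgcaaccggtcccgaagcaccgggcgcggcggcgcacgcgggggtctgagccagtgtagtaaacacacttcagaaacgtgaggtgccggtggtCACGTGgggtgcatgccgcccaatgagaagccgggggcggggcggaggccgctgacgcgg

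Wee1 encodes a kinase that holds back entry into mitosis and that BMAL1 with CLOCK is known to drive in liver. Among 23 clock outputs and modifiers Wee1 was the only called gene (0.919% of all tested genes were called). It had 7.55 and 4.91 CPM at control ZT6, 24.6, 40.1 and 26.6 at control ZT18, 23.2, 19.8 and 18.99 at diet ZT6 and 19.4, 15.999 and 20.5 at diet ZT18. The control ZT6 libraries were the lowest of all, the control ZT18 libraries were the highest, and the diet groups overlapped. It rose by 2.29 in control (adjusted p = 0.000332), and the interaction was -2.44 ± 0.35 (adjusted p = 0.00414). Wee1 was called with each of the 11 libraries left out (adjusted p at most 0.0342).

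Mitochondrially encoded genes moved in the diet libraries. Of 13 listed, 8 passed the filter on low counts and 7 of these had a called positive interaction (median 1.58 over the 8), against 0.433% of all tested genes. Under diet these 7 rose from ZT6 to ZT18, and in control none was called. Of all tested genes 0.228% rose under diet and 4.78% were called in control. The median difference over the 8 was 1.96 under diet and 0.43 in control. mt-Cytb, the cytochrome b subunit of complex III, had 2362 and 1663 CPM at control ZT6, 3231, 3306 and 3306 at control ZT18, 1767, 1983 and 1965 at diet ZT6 and 9873, 12618 and 6599 at diet ZT18. The 3 diet ZT18 libraries were above all other 8. Its interaction was 1.64 ± 0.28 (adjusted p = 0.00901), with a diet rise of 2.35 (adjusted p = 4.44e-06) and a control difference of 0.71 (adjusted p = 0.0647). mt-Nd4, a complex I subunit, had 947 and 699 CPM at control ZT6, 1056, 1122 and 1065 at control ZT18, 773, 785 and 777 at diet ZT6 and 3220.3, 3888 and 2367 at diet ZT18, again highest in diet ZT18 with no overlap. Its interaction was 1.63 ± 0.25 (adjusted p = 0.00621).

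Among other complex I subunits, mt-Nd2 (1.73 ± 0.28, adjusted p = 0.00643) and mt-Nd1 (1.53 ± 0.27, adjusted p = 0.0106) were called with each library left out, as were mt-Nd4 and mt-Cytb. mt-Nd5 (1.22 ± 0.25), mt-Nd6 (1.12 ± 0.23) and the complex IV subunit mt-Co1 (1.10 ± 0.24) were called with all libraries but in 4, 5 and 2 of the 11 fits with 1 left out. Their adjusted p was highest without control ZT6 replicate 1 (0.0988, 0.116 and 0.155). mt-Nd3 had an interaction of 1.76 ± 0.65 and was not called (adjusted p = 0.208). The mitochondrial glutamine tRNA gene mt-Tq had 8.797 and 6.64 CPM at control ZT6, 7.99, 6.77 and 6.57 at control ZT18, 7.99, 8.905 and 8.41 at diet ZT6 and 34.95, 47.4 and 26.8 at diet ZT18, and its interaction was 2.23 ± 0.36 (adjusted p = 0.00666). It lies on the minus strand among genes of the plus strand, as mt-Nd6 does, and without a stated strand setting its reads cannot be told from those of the other strand. The mitochondrial messenger share of all counts was 4.27, 5.02 and 3.04% in diet ZT18, against 0.724% to 1.45% in the other 8 libraries. Red cell and platelet markers summed to 2868, 4498 and 4921 CPM in diet ZT18 and to 1805, 1562 and 1492 CPM in diet ZT6, and their part in the result was not tested.

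**Figure D4:**
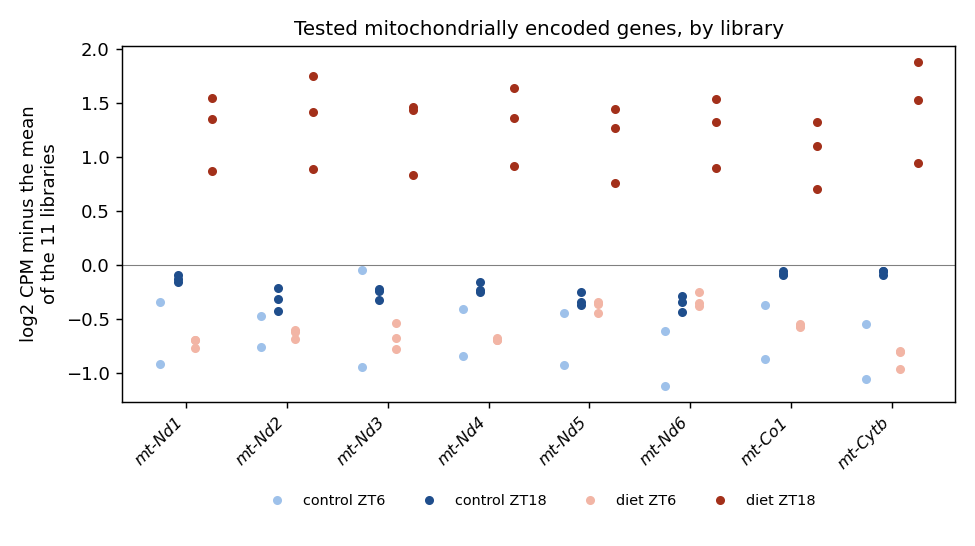
Each point is 1 library, drawn as its log2 CPM minus the mean of the 11 libraries, for the 8 mitochondrially encoded genes that were tested. The 3 diet ZT18 libraries lie above the other 8 in each gene, and control ZT18 lies above control ZT6 in all but mt-Nd3.

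Cytosolic heat shock genes split in 2 directions. Of 20, all tested, 4 had a positive and 2 a negative called interaction, with a median of -0.32, where 0.433% of all tested genes were called positive and 0.486% negative. In control 9 rose and 3 fell from ZT6 to ZT18, and under diet 1 fell, the cold-inducible RNA-binding protein gene Cirbp (-0.77). Of all tested genes 2.95% rose and 1.83% fell in control, and 0.138% fell under diet. Stip1, which encodes the HOP scaffold that joins HSP70 to HSP90, had 258 and 209 CPM at control ZT6, 108, 148 and 137 at control ZT18, 117, 115 and 133 at diet ZT6 and 181, 187 and 198 at diet ZT18. In control the ZT6 libraries were above the ZT18 ones, and under diet below them. The interaction was 1.46 ± 0.25 (adjusted p = 0.00901). Stip1 was called with each of the 11 libraries left out (adjusted p at most 0.032). The HSP90 gene Hsp90ab1 (0.90 ± 0.18, adjusted p = 0.0249), its activator Ahsa1 (1.07 ± 0.21, adjusted p = 0.0235) and the small heat shock protein gene Hspb1 (1.80 ± 0.41, adjusted p = 0.0395) were positive too. The negative ones were the inducible HSP70 gene Hspa1b (-2.20 ± 0.51, adjusted p = 0.0406) and its J-domain partner Dnajb1. With 1 library left out Ahsa1 was called in 7 of the 11 fits, Hsp90ab1 in 4, and Hspb1 and Hspa1b in 1 each.

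Dnajb1 had 269 and 227 CPM at control ZT6, 914, 1259 and 1243 at control ZT18, 835, 913 and 815 at diet ZT6 and 1483, 1116 and 1064 at diet ZT18. Control ZT6 was lowest, and the other 3 groups lay at similar levels, with diet ZT18 above diet ZT6. The gene rose by 2.20 in control (adjusted p = 0.000349), the diet difference of 0.52 was not called, and the interaction was -1.68 ± 0.35 (adjusted p = 0.0261). Hspa1b shares most of its sequence with Hspa1a, which was not called (-1.07 ± 0.48), and reads may have been split between them. Dnajb1 was called in 3 of the 11 fits that leave out 1 library, and its adjusted p was highest, 0.16, without control ZT6 replicate 2. The list gave 1 to 5 calls with 1 library left out, 2 of them without control ZT6 replicate 2.

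The interactions of T and NK cell markers were estimated below 0. Of 32 markers, all tested, 6 were called negative and none positive (0.486% of all tested genes were called negative), and all 32 estimates were below 0, with a median of -1.81. In control 18 rose from ZT6 to ZT18 and none fell (median 1.54), where 2.95% of all tested genes rose. Under diet none was called (median -0.25, 8 at an unadjusted p under 0.05 and 0 by DESeq2), but only 0.366% of all tested genes were. The marker sum was 1353 and 1122 CPM at control ZT6, 3458, 3865 and 3954 at control ZT18, 9816, 11656 and 12292 at diet ZT6 and 8296, 7543 and 6168 at diet ZT18. It was higher at ZT18 in control and lower at ZT18 under diet, with no overlap between the 4 groups. The calls of single genes were not stable. With 1 library left out 0 to 2 of the 32 were called, while DESeq2 called 18.

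Nkg7, a granule protein of cytotoxic cells, had 102 and 98.2 CPM at control ZT6, 269, 344 and 344 at control ZT18, 1009, 1292 and 1300.4 at diet ZT6 and 664, 702 and 515 at diet ZT18. The groups did not overlap, and the order of the times was opposite in the diets. Its interaction was -2.61 ± 0.56 (adjusted p = 0.0307), with a control rise of 1.67 (adjusted p = 0.0295). Lck, the kinase of T cell receptor signalling, had 125 and 86.6 CPM at control ZT6, 308, 353 and 356 at control ZT18, 618, 599 and 677 at diet ZT6 and 597, 523 and 527 at diet ZT18, with an interaction of -1.88 ± 0.42 (adjusted p = 0.0362). Its diet groups lay close together, and its control rise was 1.68. The chemokine gene Ccl5 had 89.8 and 92.2 CPM at control ZT6, 183, 237 and 249.6 at control ZT18, 2426, 3621 and 3195 at diet ZT6 and 1286, 1243 and 813 at diet ZT18, with an interaction of -2.76 ± 0.65 (adjusted p = 0.0482) and neither single difference called. Klrb1c, which encodes NK1.1 (-1.61 ± 0.34), the costimulatory receptor gene Cd27 (-1.77 ± 0.39) and the T cell receptor constant gene Trbc1 (-2.64 ± 0.61), whose reads may be split with its near copy Trbc2, were also called. So were the lymphocyte genes Itm2a (-3.64 ± 0.61), Sh2d1a, the adaptor SAP (-3.25 ± 0.77), Lax1, an adaptor that dampens antigen receptor signals (-2.57 ± 0.58), and Gpr174, a receptor of lymphocytes (-2.56 ± 0.50). Thy1, listed among fibroblast markers and also made by T cells, had an interaction of -2.11 ± 0.46 (adjusted p = 0.0307). Itm2a lost its call without control ZT6 replicate 2 (adjusted p = 0.0848). Gpr174 was called in 8 of the 11 fits that leave out 1 library, and its adjusted p was highest, 0.151, without control ZT6 replicate 2. Nkg7, Lck, Cd27, Lax1 and Thy1 were each called in 1 of the 11 fits, Klrb1c in 2, and Ccl5, Trbc1 and Sh2d1a in none, with the highest adjusted p of each, 0.169 to 0.232, without control ZT6 replicate 2.

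The largest negative interaction among genes with a mean log2 CPM of at least 2 was that of Trbv16, a variable segment of the T cell receptor beta chain. It had 1.61 and 1.34 CPM at control ZT6, 3.997, 4.95 and 5.78 at control ZT18, 91.5, 199.8 and 19.9 at diet ZT6 and 9.89, 9.95 and 8.48 at diet ZT18. The diet ZT6 libraries were all above the diet ZT18 ones but differed widely among themselves. The interaction was -5.19 ± 1.12 (adjusted p = 0.0307), with a diet fall by 3.46 (adjusted p = 0.0254). Trbv16 was called in 2 of the 11 fits that leave out 1 library, and its adjusted p was highest, 0.192, without control ZT6 replicate 2. Baiap3 (-3.05 ± 0.71, adjusted p = 0.0431), a factor of vesicle traffic, and Agap2 (-2.59 ± 0.53, adjusted p = 0.0253), a GTPase-activating protein, complete the 10 largest negative ones. Agap2 was called in 6 of the 11 fits that leave out 1 library, and its adjusted p was highest, 0.155, without control ZT6 replicate 2. Baiap3 was called in no such fit, with an adjusted p of up to 0.221 (without control ZT6 replicate 2).

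Macrophage markers mostly had estimates above 0. Of 28 markers of macrophages and Kupffer cells, all tested, 2 had a called positive interaction (0.433% of all tested genes did) and none a negative one, and 26 estimates were above 0, with a median of 1.68. In control 14 fell and 1 rose from ZT6 to ZT18 (median -1.71), where 1.83% of all tested genes fell and 2.95% rose. Under diet none was called (median 0.078, 2 at an unadjusted p under 0.05 and 0 by DESeq2), but only 0.366% of all tested genes were. The marker sum was 3710.3 and 6911 CPM at control ZT6, 2997, 2739 and 2786 at control ZT18, 5827, 7267 and 4667 at diet ZT6 and 5582, 6554 and 6924 at diet ZT18. The 2 control ZT6 libraries differed widely from each other, and replicate 2 lay among the diet libraries. Lyz2, the lysozyme of myeloid cells, had 143 and 499.99 CPM at control ZT6, 99.96, 92.7 and 92.9 at control ZT18, 721, 1010.1 and 524 at diet ZT6 and 802, 1080.03 and 1135 at diet ZT18, with an interaction of 2.17 ± 0.46 (adjusted p = 0.0289). The protease gene Ctss had an interaction of 1.59 ± 0.35 (adjusted p = 0.0314). Both were called in 3 of the 11 fits with 1 library left out and had their highest adjusted p (0.29 and 0.283) without control ZT6 replicate 2. The list gave 0 to 12 calls in these fits, 12 of them without control ZT6 replicate 1 and none without control ZT6 replicate 2.

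C5ar1, the receptor of complement fragment C5a on myeloid cells, had the largest positive interaction by the same rule. It had 8.69 and 20.3 CPM at control ZT6, 1.87, 1.24 and 1.197 at control ZT18, 8.49, 14.8 and 9.26 at diet ZT6 and 7.497, 24.6 and 25.4 at diet ZT18. Control ZT18 was lowest, and the other 3 groups overlapped. It fell by 3.34 in control (adjusted p = 0.000835), and the interaction was 4.15 ± 0.61 (adjusted p = 0.00414). C5ar1 was called with each of the 11 libraries left out (adjusted p at most 0.032). Of lectin receptors of myeloid cells, Clec4n, which encodes dectin-2, had 3.23 and 17.9 CPM at control ZT6, 2.25, 0.546 and 1.61 at control ZT18, 20.3, 23.9 and 16.4 at diet ZT6 and 24.8, 27.4 and 31.7 at diet ZT18, and Cd207, which encodes langerin, had 10.7 and 27.9 CPM at control ZT6, 7.54, 2.88 and 4.41 at control ZT18, 3.55, 5.27 and 3.02 at diet ZT6 and 14.4, 8.89 and 11.01 at diet ZT18. In both genes control ZT6 replicate 2 was well above replicate 1. Their interactions were 3.32 ± 0.74 (adjusted p = 0.0349) and 3.49 ± 0.82 (adjusted p = 0.0454). Each was called in 2 of the 11 fits with 1 library left out, and without control ZT6 replicate 2 the adjusted p was 0.398 and 0.265.

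Some genes of plasma proteins made by hepatocytes had called positive interactions. Of 32 hepatocyte markers, all tested, 6 were called positive (0.433% of all tested genes were) and none negative, with a median of 0.95. In control 4 fell from ZT6 to ZT18 (1.83% of all tested genes did), and under diet 3 rose (0.228% of all tested genes did). Alb, which encodes albumin, had 93.2 and 146 CPM at control ZT6, 191, 141 and 132 at control ZT18, 673, 449.9 and 326 at diet ZT6 and 498, 624 and 632 at diet ZT18, with an interaction of -0.097 ± 0.39 (adjusted p = 0.963). Hpx, the heme scavenger hemopexin, had 18.1 and 51.96 CPM at control ZT6, 17.8, 8.34 and 7.56 at control ZT18, 26.1, 34.8 and 24.9 at diet ZT6 and 107, 93.5 and 107 at diet ZT18. It was higher at ZT18 in every diet library and lower at ZT18 in every control library, though control ZT6 replicate 1 lay just above the highest control ZT18 library. It fell by 1.65 in control (adjusted p = 0.0267) and rose by 1.84 under diet (adjusted p = 0.0346), and the interaction was 3.48 ± 0.56 (adjusted p = 0.00681). Serpina3k, a serpin, had 19.2 and 36.9 CPM at control ZT6, 29.02, 16.6 and 18.5 at control ZT18, 4.26, 3.499 and 4.63 at diet ZT6 and 22.2, 19.6 and 14.001 at diet ZT18. It rose under diet by 2.17 (adjusted p = 0.000889), with an interaction of 2.56 ± 0.42 (adjusted p = 0.0074).

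The hemoglobin scavenger gene Hp (3.03 ± 0.51, adjusted p = 0.00781) and the fibrinogen gene Fgb (2.60 ± 0.46, adjusted p = 0.0107) fell in control. The apolipoprotein gene Apoa1 (1.54 ± 0.32, adjusted p = 0.0267) rose under diet. Serpina1a (2.22 ± 0.50) and Serpina1e (3.53 ± 0.72), near-identical alpha-1-antitrypsin genes between which reads may have been split, were also called. With 1 library left out Apoa1 and Serpina1e were each called in 4 of the 11 fits and Serpina1a in 2, and all 3 had their highest adjusted p (0.21, 0.154 and 0.246) without control ZT6 replicate 2. Hpx, Serpina3k, Hp and Fgb each lost their call only without control ZT6 replicate 2 (adjusted p = 0.0722, 0.0749, 0.102 and 0.129). The list gave 0 to 8 calls with 1 library left out, none of them without control ZT6 replicate 2. The marker sum was 693 and 1276 CPM at control ZT6, 935, 758 and 696 at control ZT18, 2597, 1986 and 1475 at diet ZT6 and 2458, 2838 and 3035 at diet ZT18, and control ZT6 replicate 2 was again above the other control libraries. Lrg1, a plasma glycoprotein of the acute phase, had 71.1 and 219 CPM at control ZT6, 17.3, 23.9 and 33.9 at control ZT18, 18.1, 28.3 and 17.8 at diet ZT6 and 21.2, 21.998 and 36.8 at diet ZT18, with an interaction of 2.85 ± 0.55 (adjusted p = 0.0209). Lrg1 was called in 7 of the 11 fits that leave out 1 library, and its adjusted p was highest, 0.198, without control ZT6 replicate 2.

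**Figure D5:**
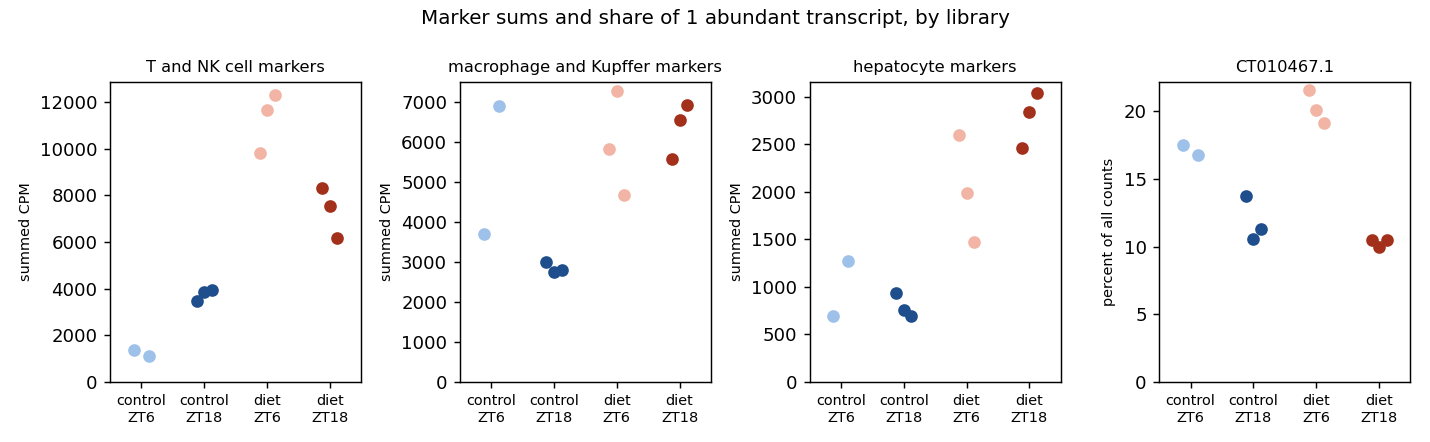
Summed CPM of the T and NK cell, macrophage and hepatocyte marker lists, and the percent of counts in the ribosomal RNA gene CT010467.1, with 1 point per library in the 4 groups and y axes from 0. The T and NK sums rise from ZT6 to ZT18 in control and are lower at ZT18 under diet, control ZT6 replicate 2 (the right of its pair) is high in macrophage and hepatocyte markers, and CT010467.1 is lower at ZT18 in both diets.

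Among metabolic genes, Psat1, Mthfd1l, Fasn and Srebf2 rose in control and had called negative interactions. Psat1, an enzyme of serine synthesis, had 3.96 and 3.96 CPM at control ZT6, 12.6, 15.1 and 13.2 at control ZT18, 48.3, 46.7 and 40.5 at diet ZT6 and 31.4, 30.3 and 27.7 at diet ZT18. The order of the times was opposite in the diets, with no overlap between groups. It rose by 1.79 in control (adjusted p = 0.00283), the diet difference of -0.60 was not called, and the interaction was -2.39 ± 0.38 (adjusted p = 0.00643). Mthfd1l, a mitochondrial folate enzyme that makes formate, had 3.96 and 4.69 CPM at control ZT6, 12.3, 13.8 and 15.9 at control ZT18, 32.5, 33.96 and 26.4 at diet ZT6 and 25.8, 29.4 and 23.03 at diet ZT18. It was higher at ZT18 in each control library, and the diet groups overlapped. It rose by 1.69 in control, and the interaction was -1.94 ± 0.31 (adjusted p = 0.00681). Psat1, Mthfd1l and Wee1 were the 3 negative genes called with every library left out in turn.

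Fasn, fatty acid synthase, had 11.5 and 13.3 CPM at control ZT6, 30.2, 31.5 and 27.1 at control ZT18, 59.3, 59.9 and 43.3 at diet ZT6 and 41.2, 42.7 and 48.2 at diet ZT18. It rose by 1.25 in control (adjusted p = 0.00348), and the diet groups overlapped. Its interaction was -1.55 ± 0.29 (adjusted p = 0.0152), the only call among 19 genes of fatty acid synthesis (median -0.42). Of all tested genes 0.919% were called, so a single call, here and for Srebf2 below, is a result for the gene and not for its list. Fasn lost its call without control ZT6 replicate 2 (adjusted p = 0.0606). Srebf2, the main transcription factor of sterol synthesis, had 35.6 and 31.3 CPM at control ZT6, 67.8, 56.7 and 58.3 at control ZT18, 73.3, 74.5 and 69.9 at diet ZT6 and 68.3, 70.6 and 64.97 at diet ZT18. It rose by 0.87 in control (adjusted p = 0.00252), and its interaction of -0.96 ± 0.19 (adjusted p = 0.021) was the only call among 25 genes of cholesterol synthesis (median -0.38). Srebf2 lost its call without control ZT6 replicate 2 (adjusted p = 0.141) and diet ZT18 replicate 3 (adjusted p = 0.0576). Slc7a8, an amino acid transporter, had 9.37 and 32.7 CPM at control ZT6, 2.58, 4.95 and 2.805 at control ZT18, 13.6, 21.9 and 15.4 at diet ZT6 and 11.01, 27.4 and 18.03 at diet ZT18, with an interaction of 2.75 ± 0.60 (adjusted p = 0.0313). Slc7a8 was called in 3 of the 11 fits that leave out 1 library, and its adjusted p was highest, 0.302, without control ZT6 replicate 2.

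Some signalling genes had small standard errors. Pim3, a serine/threonine kinase, had 379 and 346 CPM at control ZT6, 208, 182 and 174 at control ZT18, 68.4, 88.5 and 78.4 at diet ZT6 and 99.99, 96.4 and 101 at diet ZT18. The 4 groups did not overlap, with control falling and diet the lowest. It fell by 0.94 in control (adjusted p = 0.000332), and the interaction was 1.28 ± 0.16 (adjusted p = 0.000816). Jak1, a tyrosine kinase of cytokine receptors, had 1908 and 2106 CPM at control ZT6, 1161, 1132 and 1145 at control ZT18, 479, 557 and 564 at diet ZT6 and 560.4, 589 and 561 at diet ZT18. It fell by 0.81 in control (adjusted p = 0.000332), and the diet groups overlapped. The interaction was 0.90 ± 0.14 (adjusted p = 0.00427). Ifi207, an interferon-inducible gene of a family with near copies, had 112 and 114 CPM at control ZT6, 51.3, 61.2 and 58.8 at control ZT18, 37.6, 49.2 and 45.4 at diet ZT6 and 60.1, 62.8 and 69.4 at diet ZT18, with an interaction of 1.53 ± 0.23 (adjusted p = 0.00414). All 3 were called with each library left out (adjusted p at most 0.00585, 0.0383 and 0.0211). Among 33 tested interferon-stimulated genes Bst2 (tetherin) was the only call (0.95 ± 0.19, adjusted p = 0.0235), beside a list median of 0.64. The share called over all tested genes was 0.919%. Of the 33 interferon-stimulated genes 28 had an estimate above 0, 13 had an unadjusted p under 0.05 and 6 were called by DESeq2. Over all 22409 tested genes these last 2 counts were 3058 and 775. In control 6 of the 33 fell from ZT6 to ZT18 by edgeR, where 1.83% of all tested genes did. Bst2 was called in 6 of the 11 fits that leave out 1 library, and its adjusted p was highest, 0.111, without control ZT6 replicate 2.

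P4ha1, a prolyl hydroxylase of collagen that hypoxia induces, had 230.02 and 228 CPM at control ZT6, 84.3, 97.2 and 116 at control ZT18, 21.7, 20.6 and 19.2 at diet ZT6 and 30.5, 43.7 and 33.6 at diet ZT18. Its 4 groups did not overlap. It fell by 1.21 in control (adjusted p = 0.0214), and the interaction was 2.02 ± 0.40 (adjusted p = 0.0235). P4ha1 was called in 7 of the 11 fits that leave out 1 library, and its adjusted p was highest, 0.102, without control ZT6 replicate 2. It was the only call among 22 hypoxia genes, and with Ctss 1 of 2 among 28 genes of matrix turnover. Of all tested genes 0.919% were called, so a single call, here and for Gadd45g below, is a result for the gene and not for its list. Gadd45g, a stress-induced growth inhibitor, had an interaction of 1.52 ± 0.26 (adjusted p = 0.00901), the only call among 20 genes of DNA damage. Gadd45g lost its call without control ZT6 replicate 2 (adjusted p = 0.0964). Armcx4 had an interaction of 2.98 ± 0.56 (adjusted p = 0.0158). Armcx4 lost its call without control ZT6 replicate 2 (adjusted p = 0.154).

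For several lists edgeR called no interaction. With 0.919% of all tested genes called, a list of this size would hold less than 1 call at that share, so a count of 0 by edgeR does not set these lists apart. Over all 22409 tested genes, 3058 had an unadjusted p under 0.05 and DESeq2 called 775. Beside both shares immediate early and glucocorticoid-induced genes had more, as had, by less, collagen and structural matrix genes and fatty acid oxidation genes. Endothelial markers and cell cycle genes had fewer. Between the times, 2.95% of all tested genes rose and 1.83% fell in control, and 0.138% fell under diet. Of 28 immediate early genes, which answer stimuli within minutes, 0 had a called interaction (11 at an unadjusted p under 0.05 and 8 by DESeq2, median -0.40), although 11 rose from ZT6 to ZT18 in control. Fos had an interaction of 0.074 ± 0.34 (adjusted p = 0.97). Of 30 collagens and structural matrix genes 0 were called (6 at an unadjusted p under 0.05 and 2 by DESeq2), and Col1a1 had -0.48 ± 0.63 (adjusted p = 0.811). Of 31 endothelial markers 0 were called (2 at an unadjusted p under 0.05 and 0 by DESeq2, median 0.047), though 4 fell in control and 1 under diet, and the VEGF receptor gene Kdr had -0.04 ± 0.27 (adjusted p = 0.983). Of 23 tested stellate markers 0 were called (3 at an unadjusted p under 0.05 and 1 by DESeq2). Of 32 cell cycle genes 0 were called (1 at an unadjusted p under 0.05 and 0 by DESeq2). In antigen presentation the count was 0 of 19 (2 at an unadjusted p under 0.05 and 1 by DESeq2), and in fatty acid oxidation 0 of 24 (7 at an unadjusted p under 0.05 and 1 by DESeq2). Fkbp5, a glucocorticoid-induced gene, had -0.18 ± 0.38 (adjusted p = 0.904), and Per1 was the only call among 22 such genes (8 at an unadjusted p under 0.05 and 3 by DESeq2). Both estimates were below 0, while 15 of the 22 were above 0, with a median of 0.38.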

How the data were processed

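RNA-seq libraries of mouse liver cells labelled HSC were analysed. Per the submitters' processing notes, the authors aligned reads with STAR 2.7.9a to GRCm38 (mm10), counted them with HTSeq and used DESeq2. The values used are the deposited whole-number read counts of 55367 gene symbols. The labels used here do not state how cells were isolated, the batches, the annotation or the strand setting. The deposited normalised table was not used.

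Counts were tested with edgeR 4.0.16 in R 4.3.3. One model of 8 group means was fitted to all 22 libraries, so that the 2 control ZT6 libraries share 1 estimate of the spread with the rest. Genes were kept by filterByExpr (22409), libraries scaled by TMM, and the contrasts tested by glmQLFit and glmQLFTest with Benjamini-Hochberg adjustment over all tested genes. The SE given with an interaction was derived from the test, as the absolute log2 interaction divided by the square root of its quasi-likelihood F statistic. CPM are divided by TMM-scaled library sizes and are not corrected for gene length. Alternatives were RLE or library size scaling, other filters, DESeq2 1.42.0, only the 11 libraries, a replicate block and each library left out, with the tested genes kept. No replicate pair agreed within sampling noise (lowest chi-square per degree of freedom 17.5).

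The comparison, the 34 gene lists and the rules were chosen with earlier results of these data known. Genes were named as the 10 largest positive and 10 largest negative called interactions above a mean log2 CPM of 2 without a placeholder symbol, the 10 smallest p, up to 8 positive and 8 negative called in every fit with a library left out, all clock genes, and up to 4 members per list with the smallest p. Other members and anchor genes of cell identity are named too, some chosen after their values were seen, and not every gene the rule names is described. Some list members are not reported here. Coordinates are 1-based from GENCODE M21, which holds 53292 of the symbols. Promoters are RefSeq's of GRCm38.p6.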

Additional observations from a re-analysis of the deposited data

Results flagged for a closer look

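The effect of time differed between the diets, by the interaction test itself (edgeR, adjusted p under 0.05), for 206 genes, 0.919% of those tested. These calls were not equally stable. Most of the 206 were not called in every fit that leaves out 1 library, and Ccl5, Trbc1, Sh2d1a and Baiap3 were called in no such fit. No cause was tested. Among ER chaperones the log2 interactions were Hspa5 1.30, Hsp90b1 1.59, Pdia6 1.45, Pdia3 1.14, Pdia4 1.29, Calr 1.15, Canx 1.02, Dnajb11 0.92, Manf 1.12, Creld2 1.15 and Sdf2l1 1.51. Among clock genes and outputs they were Nr1d1 2.35, Per1 -1.08, Per3 -1.49, Cry1 -1.52 and Wee1 -2.44. For transcripts of the mitochondrial genome they were mt-Cytb 1.64, mt-Nd1 1.53, mt-Nd2 1.73, mt-Nd4 1.63, mt-Nd5 1.22, mt-Nd6 1.12, mt-Co1 1.10 and mt-Tq 2.23. The cytosolic heat shock genes had Stip1 1.46, Ahsa1 1.07, Hsp90ab1 0.90, Hspb1 1.80, Dnajb1 -1.68 and Hspa1b -2.20. T and NK cell markers and other lymphocyte genes had Klrb1c -1.61, Nkg7 -2.61, Cd27 -1.77, Lck -1.88, Trbc1 -2.64, Ccl5 -2.76, Thy1 -2.11, Itm2a -3.64, Sh2d1a -3.25, Lax1 -2.57, Gpr174 -2.56 and Trbv16 -5.19. Macrophage markers and receptors of myeloid cells had Lyz2 2.17, Ctss 1.59, C5ar1 4.15, Clec4n 3.32 and Cd207 3.49. Genes of plasma proteins had Hpx 3.48, Serpina3k 2.56, Hp 3.03, Fgb 2.60, Apoa1 1.54, Serpina1a 2.22, Serpina1e 3.53 and Lrg1 2.85. Metabolic genes had Psat1 -2.39, Mthfd1l -1.94, Fasn -1.55, Srebf2 -0.96 and Slc7a8 2.75. The remaining named genes had Pim3 1.28, Jak1 0.90, Ifi207 1.53, Bst2 0.95, St13 0.98, Rnd3 1.11, Snap23 1.14, Arrdc3 1.39, P4ha1 2.02, Gadd45g 1.52, Armcx4 2.98, Baiap3 -3.05 and Agap2 -2.59.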

How the results depend on the processing

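The number of called interactions depended on the tests and filters used. In place of 206 genes (97 positive, 109 negative), 1071 in control and 82 under diet, DESeq2 called 775 genes (346 positive, 429 negative), with 1955 called between the times in control and 362 under diet. A model of only the 11 libraries called 733 genes (285 positive, 448 negative), with 1627 called between the times in control and 212 under diet. With no filter on low counts the numbers were 1119 genes (423 positive, 696 negative), with 1823 called between the times in control and 445 under diet. With a mean CPM of at least 5 they were 372 genes (183 positive, 189 negative), with 1435 called between the times in control and 200 under diet. The 206 genes remained called in 205 cases by DESeq2, which gave no value for the other, in 201 with only the 11 libraries, in 186 with no filter, and in all of the 191 still tested with the CPM minimum. RLE scaling gave 211 calls with 198 shared, library size alone 209 with 177 shared, and the counts without ribosomal RNA genes 220 with 202 shared. With 1 library left out, 38 to 211 interactions were called (30 to 123 positive, 8 to 88 negative), 93 to 1011 genes in control and 30 to 94 under diet. The fit without 1 control ZT6 library assumes that the lone one varies like the other groups. No named gene that was called changed sign under any of these alternatives, and the cause of the changed counts was not tested. Leaving out the ribosomal RNA genes and the counts per list were chosen after seeing the data.

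With the replicate number as a block, 181 interactions were called (87 positive, 94 negative; 163 of the 206 remained), with 1023 genes in control and 73 under diet. Of the 73 named genes with a call, 61 remained called with the block, and Cd207, Clec4n, Sh2d1a, Baiap3, Ccl5, Trbc1, Lax1, Ctss, Hspa1b, Hspb1, mt-Co1 and Serpina1a did not (adjusted p = 0.0506 to 0.0594). The labels do not say that equal numbers mark a shared animal or day, and the deviations of same-numbered libraries from their group means correlated by -0.03 to 0.055 over 15 pairs, so the numbers were not taken to pair the libraries.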

Other observations

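Some gene groups moved with time without a called interaction of their list. Of 15 tested red cell and platelet markers 5 rose from ZT6 to ZT18 under diet (0.228% of all tested genes did). In control none was called (4.78% of all tested genes were). By edgeR 0 of their interactions were called (8 at an unadjusted p under 0.05 and 1 by DESeq2). Adrenal cortex markers, whose tissue lies next to the liver, summed to 562 and 509.9 CPM at control ZT6 and 708, 1267 and 1311 at control ZT18. In control 5 of 15 tested markers rose, where 2.95% of all tested genes did. Under diet the sums were 257, 277 and 217 CPM at ZT6 and 602, 248 and 251 at ZT18, with replicate 1 of ZT18 apart from the rest. Over the 15 tested markers the median log2 difference was 4.926 in control, with 13 at an unadjusted p under 0.05 (9 by DESeq2). Under diet this median was 3.001, with 10 at an unadjusted p under 0.05, none called by edgeR and 1 by DESeq2. The sums do not show the size of these differences. Of 28 ribosomal protein genes, 26 had an interaction below 0 (median -0.27), yet none was called by edgeR (7 at an unadjusted p under 0.05 and 0 by DESeq2). Their summed level was 4519.7 and 4489.99 CPM at control ZT6, 4933, 4243 and 4399.9 at control ZT18, 7996, 8432 and 8446 at diet ZT6 and 6750.3, 6837 and 7112 at diet ZT18. It was lower at ZT18 in each diet library, and the control groups overlapped.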
